A study of Mus musculus with 12 samples.

Results

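MHC class II antigen presentation genes were followed through the livers of dexamethasone-treated mice. The set holds 7 genes named by symbol: the class II chains H2-Aa, H2-Ab1 and H2-Eb1, the invariant chain Cd74, the peptide-loading genes H2-DMa and H2-DMb1, and the class II transactivator Ciita. A gene counted as measured if a probe set carried its symbol and no other. This held for 6 of the 7 genes, out of 19937 genes measured that way, and all 6 were among the 17904 genes kept by a filter on low values. H2-DMb1 shares its probe set with other symbols and was not analysed here.

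Livers came from 12 male C57Bl/6 mice, with 1 array per animal and 3 different animals in each of 4 groups. Wild-type mice and mice of the genotype HDAC6 Y/- received vehicle or dexamethasone, a synthetic glucocorticoid, at 1 mg/kg. Injections were intraperitoneal and ran over 3 weeks, and all animals were fed ad libitum. Hdac6 encodes a mainly cytoplasmic lysine deacetylase, and the labels describe the knockout allele no further than that genotype. The design asks what the glucocorticoid does to liver transcripts and whether the response differs without Hdac6.

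MHC class II molecules are pairs of an alpha and a beta chain that display peptides from engulfed proteins to CD4+ T cells. Cd74 escorts the new chains and blocks their groove, cathepsins and related proteases trim it, and H2-DM exchanges its last fragment for a peptide. The transactivator Ciita has no DNA-binding domain of its own and acts through RFX, CREB and NF-Y proteins bound to the X and Y boxes of class II promoters. In liver, class II is carried mainly by Kupffer cells, which are the resident macrophages, by dendritic cells and B cells, and at lower levels by sinusoidal endothelium.

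Promoter sequences are shown for letters that match the X and Y boxes. RefSeq promoters on the GRCm38.p6 assembly were at hand for 4 of the 7 genes, and the last 110 bases before the start are shown for the 3 that held the motifs searched. Capitals mark TGATTGG, the inverted CCAAT of the Y box that NF-Y binds, and upstream of it TGACGTCA or TGATGATG in the X box region. H2-Aa lies at chr17:34287824-34287933 on the minus strand, H2-Eb1 at chr17:34305757-34305866 on the plus strand and H2-DMb1 at chr17:34153081-34153190 on the plus strand, each read 5′ to 3′.
H2-Aa: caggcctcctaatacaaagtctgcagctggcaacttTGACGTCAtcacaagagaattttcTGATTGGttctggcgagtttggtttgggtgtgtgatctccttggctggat
H2-Eb1: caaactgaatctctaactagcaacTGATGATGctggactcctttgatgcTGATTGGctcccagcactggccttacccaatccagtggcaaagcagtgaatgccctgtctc
H2-DMb1: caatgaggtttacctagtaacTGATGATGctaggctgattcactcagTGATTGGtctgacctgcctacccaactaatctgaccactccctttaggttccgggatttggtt

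TGATTGG began 50 bases before the start of H2-Aa, 61 before that of H2-Eb1 and 63 before that of H2-DMb1. TGACGTCA began 74 bases before the start of H2-Aa. TGATGATG began 86 and 89 bases before the starts of H2-Eb1 and H2-DMb1. On either strand, TGATTGG was found in 7.82% of 32851 mouse promoters of 300 bases, TGATGATG in 1.44% and the palindrome TGACGTCA in 1.79%. These letters were not in either window of H2-DMa, which has 2 starts in the table. The motifs were chosen after the sequences were seen, so the matches are a description.

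Levels are the deposited log2 intensities, on which a difference of 1 is a 2-fold difference, and array medians ran from 3.13 to 3.24. Levels of different genes are not set against each other, since probe sets differ in brightness. Hdac6 itself read 5.86 to 6.43 in the 6 wild-type arrays and 3.62 to 4.40 in the 6 knockout arrays, 4.22-fold lower under vehicle (log2 change -2.08 ± 0.14 (SE), limma adjusted p = 3.70e-05). The mean of 10 hepatocyte markers was 12.49 to 12.66 in every array. Exocrine pancreas transcripts stood out in 4 arrays: their mean over 12 markers was 9.76 and 9.53 in wild-type vehicle 1 and 2, 7.71 in wild-type dexamethasone 3 and 8.36 in knockout vehicle 3, and 3.14 to 3.52 in the other 8. Results are therefore also given without these 4 arrays, which leaves 1 wild-type vehicle array that is assumed to vary like the others.

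In wild-type mice, dexamethasone lowered the transcripts of the 3 class II chains and of the invariant chain by 2.64-fold to 3.46-fold. H2-Aa, the alpha chain of the I-A molecule, read 7.02, 7.31 and 7.0005 under vehicle and 5.21, 5.08 and 5.83 under dexamethasone. All 3 treated livers lay more than 1 log2 unit below the lowest vehicle liver. The group means were 7.11 ± 0.17 (SD, n = 3) and 5.38 ± 0.40, a log2 change of -1.73 ± 0.28 (SE), 3.32-fold lower (limma adjusted p = 1.19e-03).

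H2-Ab1, the beta chain that pairs with it, read 6.61, 7.01 and 7.25 under vehicle and 4.76, 5.17 and 5.59 under dexamethasone. The groups were again apart, with the highest treated liver just over 1 log2 unit below the lowest vehicle liver. The mean went from 6.96 ± 0.32 to 5.17 ± 0.41, 3.45-fold lower (-1.79 ± 0.31, adjusted p = 1.99e-03). H2-Eb1, the beta chain of the I-E molecule, read 6.18, 6.88 and 6.40 under vehicle and 4.84, 5.08 and 5.34 under dexamethasone. No treated liver reached the vehicle range, and the mean went from 6.49 ± 0.36 to 5.09 ± 0.25, 2.64-fold lower (-1.40 ± 0.26, adjusted p = 3.77e-03). Its partner H2-Ea, whose promoter is deleted in C57BL/6 mice, stayed between 2.09 and 2.48 in all 12 arrays, below every array's median.

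Cd74, the chaperone of all class II molecules, read 6.82, 7.27 and 6.75 under vehicle and 5.11, 4.79 and 5.56 under dexamethasone. Here too every treated liver was below every vehicle liver. The mean went from 6.94 ± 0.28 to 5.15 ± 0.39, 3.46-fold lower (-1.79 ± 0.27, adjusted p = 7.06e-04). Thus 4 of 6 measured class II genes were called lower, where 6.95% of all 17904 genes were, and in the same 4 the groups did not overlap, against 14.5% of all genes with treated arrays below vehicle arrays. The median change over the 6 was -1.57, beside 0.01 over all genes.

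Without the 4 arrays that carried pancreas transcripts, H2-Aa (-1.85, adjusted p = 0.0539) and H2-Eb1 (-1.44, adjusted p = 0.108) no longer passed in wild type, while H2-Ab1 and Cd74 did. All 4 changes were as large without those arrays as with them. In whole liver, fewer cells of a type and less RNA per cell cannot be told apart.

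**Figure D1:**
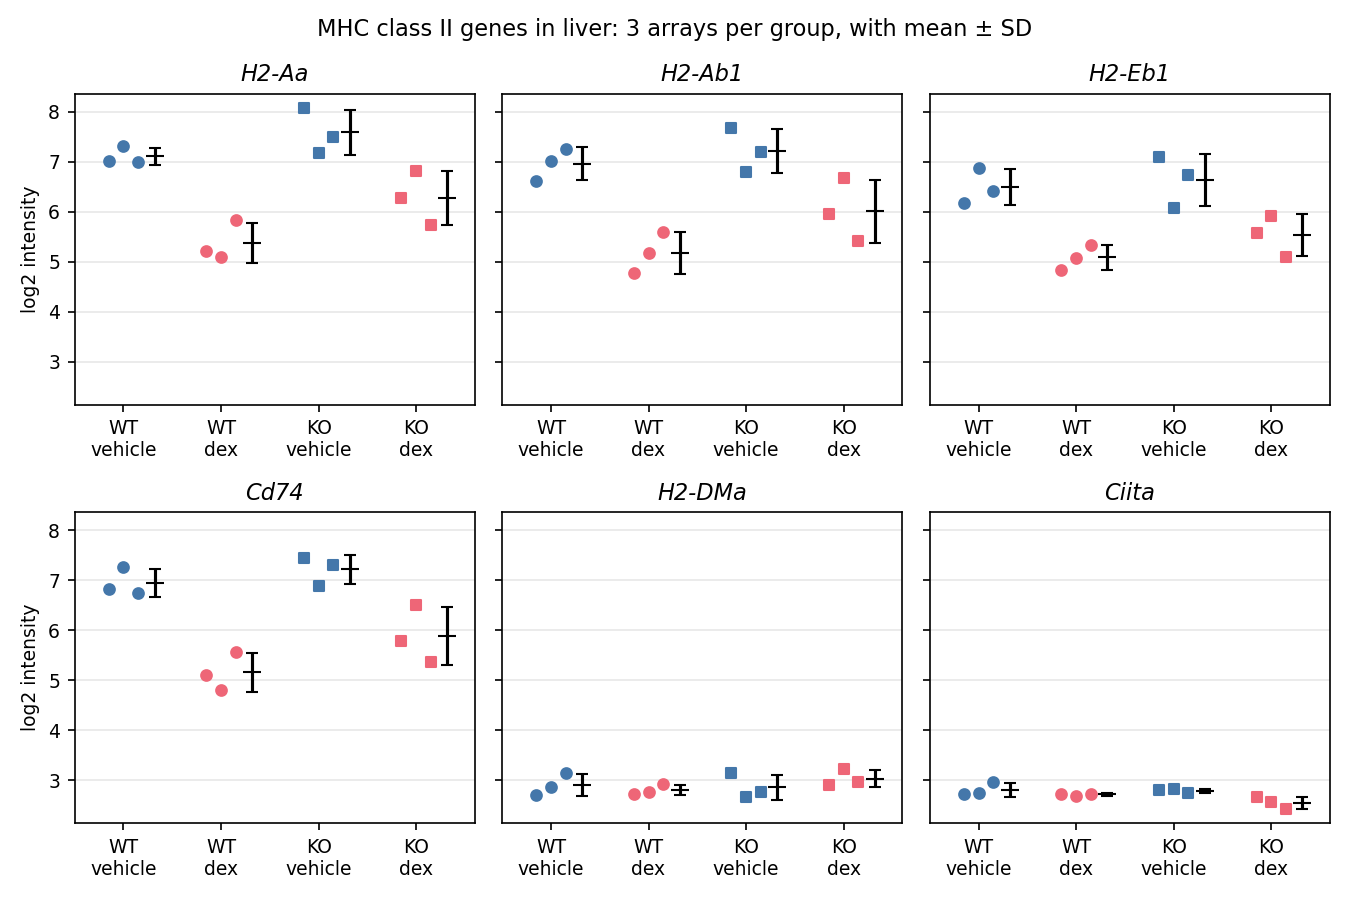
Deposited log2 intensity (vertical axis) of 6 class II genes in the 4 groups, WT for wild type and KO for Hdac6 knockout. Points are single arrays, 3 per group in replicate order, and bars are the mean ± SD. In H2-Aa, H2-Ab1, H2-Eb1 and Cd74 the dexamethasone arrays lay below the vehicle arrays of the same genotype, and H2-DMa and Ciita stayed between 2.42 and 3.22.

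In Hdac6 knockout mice the same 4 transcripts were lowered, by 2.15-fold to 2.52-fold. H2-Aa read 8.08, 7.18 and 7.49 under vehicle and 6.28, 6.82 and 5.72 under dexamethasone, with no overlap. Its mean went from 7.58 ± 0.46 (SD, n = 3) to 6.27 ± 0.55, a log2 change of -1.31 ± 0.28 (SE, adjusted p = 9.05e-03). The gap between the groups was narrower than in wild type, since the second treated liver stood close to the lowest vehicle liver.

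For H2-Ab1 the vehicle livers read 7.67, 6.79 and 7.19 and the treated livers 5.94, 6.67 and 5.41. The second treated liver stood just under the vehicle range, and the mean went from 7.22 ± 0.44 to 6.01 ± 0.63 (-1.21 ± 0.31, adjusted p = 0.0260). H2-Eb1 read 7.09, 6.06 and 6.74 under vehicle and 5.58, 5.92 and 5.09 under dexamethasone. Its groups also came close without overlapping, with means of 6.63 ± 0.52 and 5.53 ± 0.42 (-1.10 ± 0.26, adjusted p = 0.0193).

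Cd74 read 7.44, 6.89 and 7.30 under vehicle and 5.78, 6.50 and 5.36 under dexamethasone. All treated livers were lower, and the mean went from 7.21 ± 0.29 to 5.88 ± 0.57 (-1.33 ± 0.27, adjusted p = 6.29e-03). As in wild type, 4 of 6 class II genes were called lower, against 3.92% of all genes, and 5 of 6 had treated arrays that lay entirely below vehicle arrays, against 12.6% of all genes. The fifth was Ciita. The median change over the 6 was -1.16, beside -0.01 over all genes.

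The knockout calls of the 2 beta chains were lost in several alternative runs, while both stayed below 0 in all 23. H2-Ab1 missed the threshold without knockout vehicle 1 (-0.98, adjusted p = 0.119), knockout vehicle 3 (-1.22, 0.0724), knockout dexamethasone 1 (-1.17, 0.0680) or knockout dexamethasone 3 (-0.91, 0.115), and H2-Eb1 without knockout vehicle 1 (-0.87, 0.0893), knockout vehicle 3 (-1.05, 0.0724) or knockout dexamethasone 3 (-0.88, 0.0881). Without the 4 arrays with pancreas transcripts, H2-Ab1 (-1.22, 0.0876) and H2-Eb1 (-1.05, 0.0865) also missed it, and H2-Ab1 also did so with a trended, robust variance prior (-1.21, 0.0529) and with only the knockout arrays in the fit (-1.21, 0.0574). H2-Aa and Cd74 passed in every alternative run.

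With both genotypes averaged, the changes were -1.52 ± 0.19 for H2-Aa (adjusted p = 1.03e-04), -1.497 ± 0.22 for H2-Ab1 (2.71e-04), -1.25 ± 0.19 for H2-Eb1 (3.51e-04) and -1.56 ± 0.19 for Cd74 (5.88e-05). Again 4 of 6 were called lower, against 9.94% of all genes.

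H2-DMa and Ciita were dim on these arrays. H2-DMa, the alpha chain of the peptide exchanger, read 2.70, 2.86 and 3.15 in wild-type vehicle, 2.72, 2.77 and 2.92 in wild-type dexamethasone, 3.15, 2.67 and 2.76 in knockout vehicle and 2.90, 3.22 and 2.97 in knockout dexamethasone. It was below its array's median in 10 of 12 arrays, and its groups overlapped in both genotypes. The change was -0.10 ± 0.15 in wild type (95% interval -0.41 to 0.22, adjusted p = 0.760) and 0.17 ± 0.15 in the knockout (-0.14 to 0.48, adjusted p = 0.639).

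Ciita, the switch that most class II transcription depends on, read 2.72, 2.73 and 2.96 in wild-type vehicle and 2.73, 2.69 and 2.73 in wild-type dexamethasone. In the knockout it read 2.79, 2.82 and 2.73 under vehicle and 2.66, 2.56 and 2.42 under dexamethasone, where the 3 treated livers were the lowest of all 12. It was below the array median in 12 of 12 arrays. The change was -0.09 ± 0.09 in wild type (-0.29 to 0.11, adjusted p = 0.641) and -0.24 ± 0.09 in the knockout (-0.44 to -0.03, adjusted p = 0.175), so it passed in neither. At such low signal, a change in these 2 genes may not be detectable on the arrays.

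Loss of Hdac6 alone moved none of the 6 genes past the threshold. Under vehicle, the knockout minus wild-type difference was 0.47 ± 0.28 for H2-Aa (95% interval -0.12 to 1.07, adjusted p = 0.764), 0.26 ± 0.31 for H2-Ab1 (-0.41 to 0.92), 0.14 ± 0.26 for H2-Eb1 (-0.43 to 0.72) and 0.27 ± 0.27 for Cd74 (-0.31 to 0.84). The groups overlapped for all 6 genes, and 0.101% of all genes were called in either direction (limma; 18 genes, and 1288 at an unadjusted p under 0.05).

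Under dexamethasone the knockout minus wild-type difference was above 0 for the 4 transcripts but passed for none after adjustment. It was 0.90 ± 0.28 for H2-Aa (95% interval 0.30 to 1.49, adjusted p = 0.373), 0.84 ± 0.31 for H2-Ab1 (0.17 to 1.497, adjusted p = 0.478), 0.44 ± 0.26 for H2-Eb1 (-0.13 to 1.01, adjusted p = 0.673) and 0.73 ± 0.27 for Cd74 (0.15 to 1.30, adjusted p = 0.478). For each of these 4 genes the lowest knockout array, knockout dexamethasone 3, lay within the wild-type range. Only 0.0279% of all genes were called in this comparison, and Ciita was the 1 class II gene whose groups did not overlap, lower in the knockout, against 7.07% of all genes. These comparisons share their arrays with the dexamethasone comparisons above and are not independent of them.

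The difference between the dexamethasone effects, knockout minus wild type, was tested directly. It was 0.42 ± 0.39 for H2-Aa (95% interval -0.42 to 1.27, adjusted p = 0.909), 0.58 ± 0.43 for H2-Ab1 (-0.36 to 1.52, adjusted p = 0.879), 0.30 ± 0.37 for H2-Eb1 (-0.51 to 1.10, adjusted p = 0.936) and 0.46 ± 0.38 for Cd74 (-0.35 to 1.27, adjusted p = 0.895). The intervals thus include a decrease stronger in the knockout (lowest limit -0.51) and one weaker by more than 1 log2 unit. None of the 17904 genes passed this test in limma (0%), and 1109 had an unadjusted p under 0.05.

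**Figure D2:**
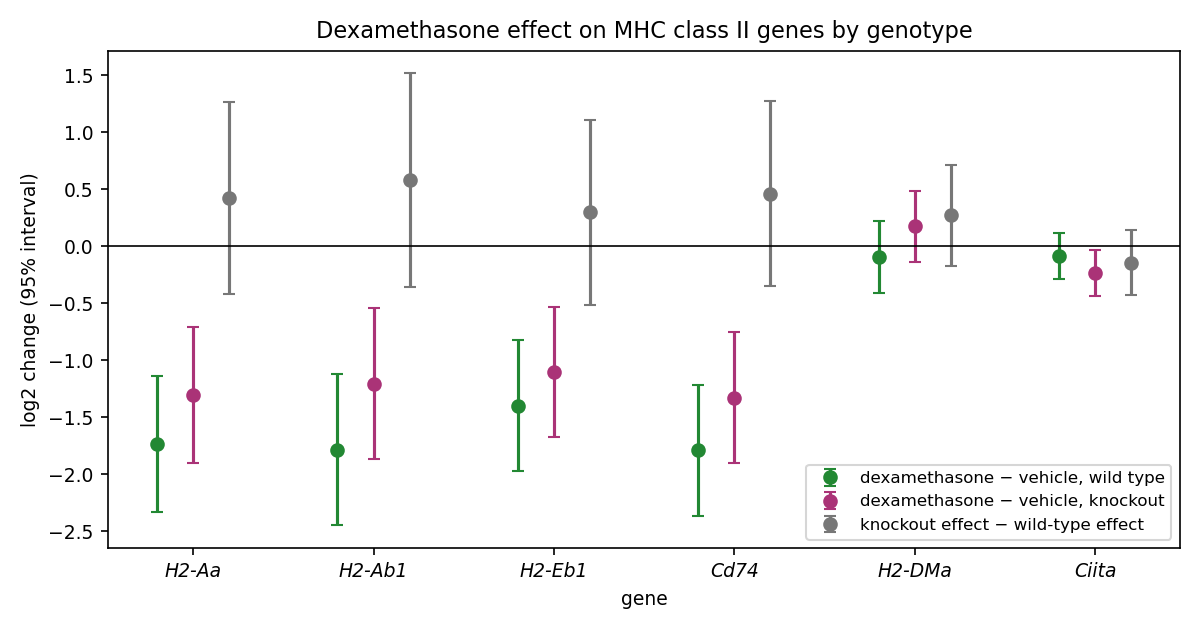
Log2 change with its 95% interval (vertical axis) for 6 class II genes: dexamethasone minus vehicle in wild type, the same in the Hdac6 knockout, and the difference between both effects. For H2-Aa, H2-Ab1, H2-Eb1 and Cd74 the intervals in both genotypes lie below 0, and all 6 intervals of the difference include 0.

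The 4 transcripts shared their highest animal in 3 of the 4 groups. Knockout dexamethasone 2 was highest and 3 lowest for all 4, knockout vehicle 1 was highest and 2 lowest for all 4, and wild-type dexamethasone 3 was highest for all 4. The lowest wild-type dexamethasone array was 2 for H2-Aa and Cd74 and 1 for H2-Ab1 and H2-Eb1. In wild-type vehicle the order was mixed: array 3 was lowest for H2-Aa and Cd74 but highest for H2-Ab1. Averaged over the 4 transcripts, the levels were 6.66, 7.12 and 6.85 in wild-type vehicle, 4.98, 5.03 and 5.58 in wild-type dexamethasone, 7.57, 6.73 and 7.18 in knockout vehicle and 5.89, 6.48 and 5.40 in knockout dexamethasone. The spread between treated knockout livers was therefore 1.08 log2 units, beside 0.60 between treated wild-type livers; the difference in spread was not tested.

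Among 17 measured regulators of class II transcription, of 18 listed, dexamethasone lowered 6 in wild-type livers, beside 6.95% of all genes, and 3 in knockout livers, beside 3.92%, and raised 0 in either. Irf1, an interferon-induced factor that drives Ciita's inducible promoter, read 6.38, 6.65 and 6.59 in wild-type vehicle and 4.58, 4.43 and 4.35 in wild-type dexamethasone. In the knockout it read 6.88, 5.80 and 6.24 under vehicle and 5.13, 5.16 and 4.44 under dexamethasone. The treated livers were lower throughout, by 4.25-fold in wild type (-2.09 ± 0.24, adjusted p = 8.28e-05) and 2.63-fold in the knockout (-1.40 ± 0.24, adjusted p = 1.94e-03). A second, dimmer probe set of Irf1 did not share the size of the decrease. The mean of both probe sets gave -1.04 in wild type and -0.82 in the knockout.

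Rfx5, the DNA-binding subunit of RFX on the X box, read 3.94, 4.02 and 4.41 in wild-type vehicle, 3.29, 3.45 and 3.58 in wild-type dexamethasone, 4.23, 3.81 and 3.61 in knockout vehicle and 3.29, 3.21 and 3.25 in knockout dexamethasone. No treated liver overlapped its vehicle group (-0.68 ± 0.15, adjusted p = 0.0114 in wild type and -0.63 ± 0.15, adjusted p = 0.0219 in the knockout). The wild-type call was lost without wild-type dexamethasone 1 (adjusted p = 0.0518), and the knockout call without knockout vehicle 1 (0.0913), knockout dexamethasone 2 (0.0774) or knockout dexamethasone 3 (0.0624).

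Nfyb, a subunit of NF-Y on the Y box, read 7.19, 6.56 and 7.16 in wild-type vehicle, 6.41, 6.27 and 6.10 in wild-type dexamethasone, 7.17, 7.31 and 7.18 in knockout vehicle and 6.67, 6.32 and 6.43 in knockout dexamethasone. The groups did not overlap in either genotype (-0.71 ± 0.16, adjusted p = 9.31e-03 and -0.75 ± 0.16, adjusted p = 8.21e-03). The calls of Irf1 and Nfyb stood in every alternative run, in both genotypes. The other subunits of both complexes, Rfxank, Rfxap, Nfya and Nfyc, and Creb1 passed in neither genotype.

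The remaining wild-type calls among the regulators were smaller: the interferon-gamma receptor chain Ifngr2 (-0.62 ± 0.15, adjusted p = 0.0162), its kinase Jak2 (-0.66 ± 0.20, 0.0490) and the myeloid and B cell factor Irf8 (-0.33 ± 0.10, 0.0450). In the knockout they were at -0.34, -0.49 and -0.13 and did not pass. Leaving out any array of the 12 left 3 to 5 wild-type calls in place of 6, with Irf8 lost in 11 and Jak2 in 10 of the 12 omissions. Ifngr2 was lost without wild-type vehicle 2 (limma adjusted p = 0.0653), wild-type dexamethasone 1 (0.0660) or wild-type dexamethasone 2 (0.0748). The count was 3 without either of these treated arrays, where 909 and 835 of all genes were lower, in place of 1245. It was also smaller without the 4 arrays with pancreas transcripts, as were calls over all genes, with 1 wild-type vehicle array left. The macrophage and B cell factor Spi1 was at -0.38 ± 0.20 in wild type (adjusted p = 0.270). Median changes of the list were -0.20 for wild-type and -0.04 for knockout livers.

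Of 15 measured genes of class II peptide loading and co-stimulation, of 16 listed, 3 fell in wild-type livers, beside 6.95% of all genes, and 0 in knockout livers, beside 3.92%. The medians were -0.14 and -0.02. Ctss, the cathepsin that trims the invariant chain in antigen-presenting cells, read 8.04, 7.26 and 7.62 under vehicle and 6.90, 6.85 and 6.88 under dexamethasone in wild type. All 3 treated livers were lower (-0.76 ± 0.22, adjusted p = 0.0364), whereas the knockout groups overlapped (-0.11 ± 0.22, adjusted p = 0.876). Lgmn, a lysosomal asparaginyl endopeptidase, fell by 0.76 ± 0.17 in wild type (adjusted p = 9.97e-03) and was at -0.12 ± 0.17 in the knockout (0.826). Ctsb, a general lysosomal cathepsin, fell by 0.34 ± 0.10 in wild type (0.0399) and was at -0.02 ± 0.10 in the knockout (0.967).

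The differences between genotypes in these 3 proteases did not pass (adjusted p = 0.808, 0.754 and 0.781). In wild type all 3 calls were lost without the 4 arrays with pancreas transcripts (-0.75, -0.53 and -0.27). That run left 1 wild-type vehicle array and fewer calls over all genes. Omitting 1 array at a time left 1 to 3 calls, the lowest without wild-type vehicle 1 or any of the 3 wild-type dexamethasone arrays. Over all genes 870, 909, 835 and 931 were lower in those omissions, in place of 1245. Averaged over genotypes, Lgmn (-0.44 ± 0.12, adjusted p = 0.0207) and H2-Ob, a chain of the inhibitor of H2-DM (-0.36 ± 0.11, 0.0445), passed, and neither did so without wild-type vehicle 1. The thiol reductase Ifi30 was at -0.42 ± 0.21 in wild type and 0.35 ± 0.21 in the knockout and passed in neither.

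**Figure D3:**
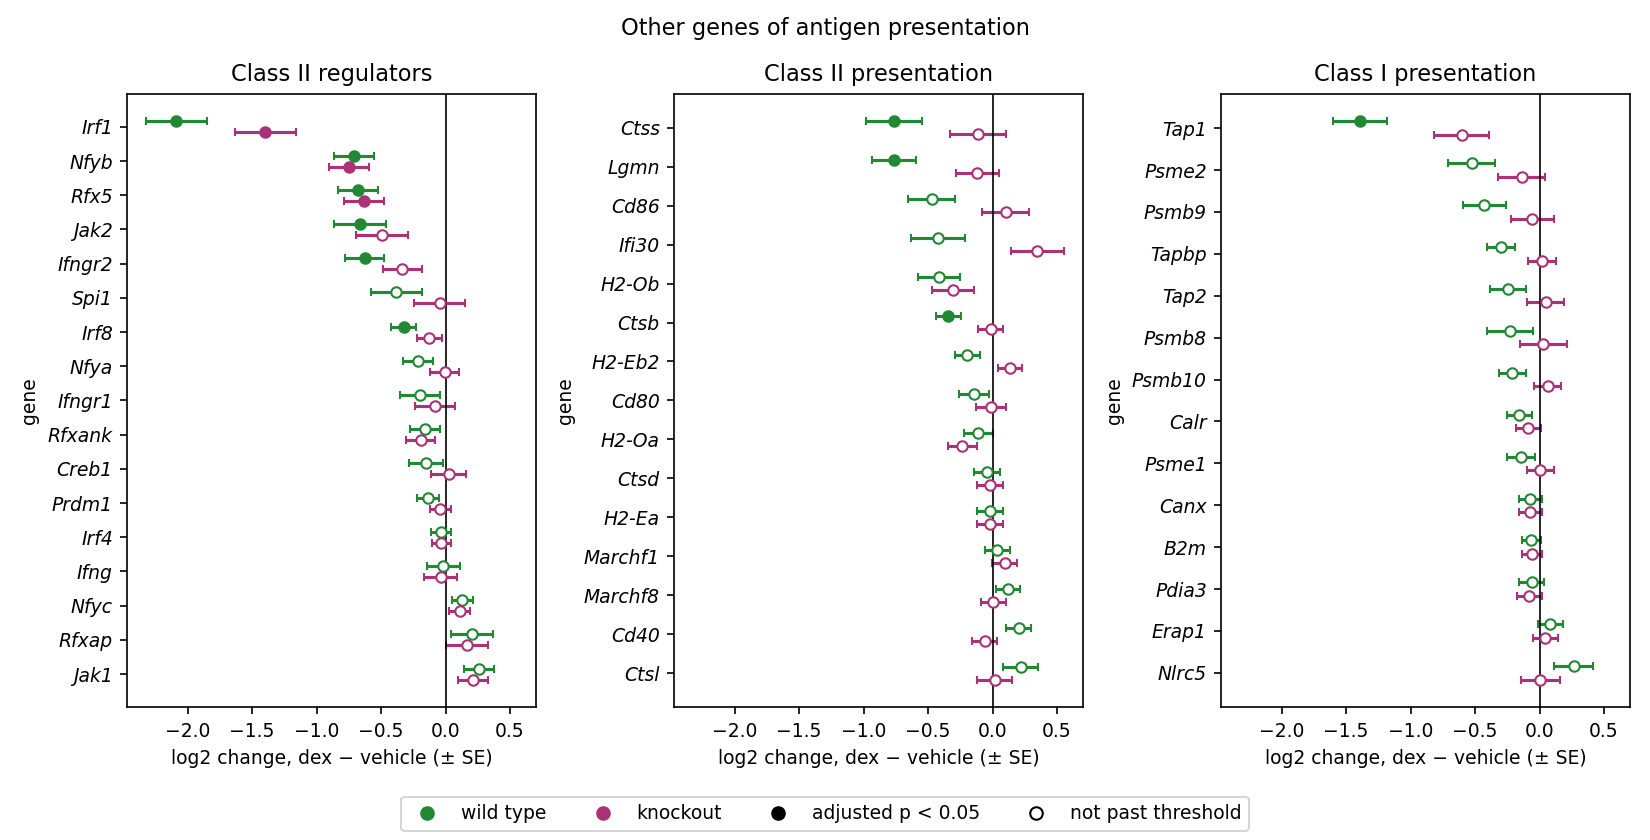
Log2 change, dexamethasone minus vehicle, with its SE (horizontal axis) for regulators of class II, other genes of class II presentation and genes of class I presentation, in wild type and Hdac6 knockout. Filled points passed an adjusted p of 0.05: 6, 3 and 1 genes in wild type against 3, 0 and 0 in the knockout, all below 0.

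Class I presentation, which displays peptides from the cell's own proteins, had calls close to the share over all genes. Of 14 measured genes, 1 fell in wild-type livers, beside 6.95% of all genes, and 0 in knockout livers, beside 3.92%. In wild type 12 of the 14 were below 0 and in the knockout 7. The medians were -0.18 and -0.03, beside 0.01 and -0.01 over all genes. The number of wild-type calls was 2 when wild-type vehicle 1 was omitted, and 2 when wild-type dexamethasone 3 was. The 1 gene called with all 12 arrays was Tap1, which with Tap2 forms the peptide transporter. It read 5.48, 5.88 and 5.80 in wild-type vehicle and 4.32, 4.31 and 4.35 in wild-type dexamethasone. In the knockout it read 5.80, 5.13 and 5.44 under vehicle and 4.92, 5.30 and 4.34 under dexamethasone, with overlap.

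The change of Tap1 was -1.39 ± 0.21 in wild type (adjusted p = 8.44e-04) and -0.60 ± 0.21 in the knockout (adjusted p = 0.113), and the difference of 0.79 ± 0.30 did not pass (adjusted p = 0.754). The wild-type call was lost without the 4 arrays with pancreas transcripts (-1.48, adjusted p = 0.0659), and the knockout value passed without knockout dexamethasone 2 (-0.83, 0.0299). Beta-2-microglobulin (B2m) was at -0.06 ± 0.08 in each genotype.

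The class II genes lie together on chromosome 17, in the RefSeq order H2-Oa, Brd2, H2-DMa, H2-DMb2, H2-DMb1, Psmb9, Tap1, Psmb8, Tap2, H2-Ob, H2-Ab1, H2-Aa, H2-Eb1 and H2-Eb2, whereas Cd74 and Ciita lie on other chromosomes. This stretch was chosen after the values were seen. Of its 12 measured genes, Tap1, H2-Ab1, H2-Aa and H2-Eb1 were lowered in wild type, beside 6.95% of all genes. The last 3 of these were lowered in the knockout, beside 3.92%. Of the 12, 11 were below 0 in wild type and 8 in the knockout, beside medians over all genes of 0.01 and -0.01. The stretch includes H2-Aa, H2-Ab1, H2-Eb1 and H2-DMa, so these counts partly repeat the class II results above. H2-Ob, next to H2-Ab1, was at -0.42 ± 0.16 in wild type (limma adjusted p = 0.130). It became the fifth lowered gene of the stretch in the averaged effect, where 9.94% of all genes were called lower. Among the others, Psmb9 was at -0.43 ± 0.17 in wild type (adjusted p = 0.133), Psmb8 at -0.23 ± 0.18 (0.506), Tap2 at -0.24 ± 0.14 (0.336) and H2-Eb2 at -0.20 ± 0.09 (0.232).

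Markers of the liver's antigen-presenting cells were set beside the class II values. Of 15 measured Kupffer cell markers, 10 fell in wild-type mice, beside 6.95% of all genes, and 1 rose, with a median change of -0.82. Among them were Cd5l, a macrophage-secreted scavenger protein (-1.55 ± 0.28, adjusted p = 2.66e-03), the growth factor receptor Csf1r (-1.03 ± 0.19, 3.63e-03) and the Kupffer lectin Clec4f (-0.63 ± 0.17, 0.0259), and the marker that rose was the haemoglobin scavenger receptor Cd163 (1.25 ± 0.28, 9.48e-03).

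In the knockout, 0 Kupffer markers fell, beside 3.92% of all genes, and Cd163 rose (1.30 ± 0.28, adjusted p = 9.63e-03). The median change was -0.00, beside decreases of 1.10 to 1.33 in the 4 class II transcripts. Cd5l, for example, was at 0.01 ± 0.28 there. The difference between the dexamethasone effects was above 0 for all 15 markers (median 0.92), and 0 passed, beside 0% of all genes. Under dexamethasone the knockout minus wild-type difference was above 0 for all 15 (median 0.68), and 0 passed, beside 0.0279% of all genes. The mean level of the 15 markers ranged from 6.39 to 7.06 in wild-type vehicle, 5.53 to 5.97 in wild-type dexamethasone, 6.27 to 6.58 in knockout vehicle and 6.15 to 6.995 in knockout dexamethasone. Wild-type dexamethasone arrays thus lay below all others, and the knockout groups overlapped.

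Among treated knockout livers the highest Kupffer mean, 6.995, and the lowest, 6.15, were in the same arrays, 2 and 3, as the highest and lowest class II means. Among treated wild-type livers array 3 was highest in both, with a Kupffer mean of 5.97 and a class II mean of 5.58. The lowest Kupffer mean there was in array 2 (5.53) and the lowest class II mean in array 1 (4.98). Both vehicle groups ran the other way: the highest Kupffer mean was in the array with the lowest class II mean, knockout vehicle 2 (6.58) and wild-type vehicle 1 (7.06). No Kupffer marker was below its array's median in all arrays. The wild-type Kupffer calls numbered 5 without wild-type vehicle 1 or without wild-type dexamethasone 2, in place of 11. Over all genes 870 were lower in wild type without the former and 835 without the latter, in place of 1245. The Kupffer calls were lost without the 4 arrays with pancreas transcripts. That run left 1 wild-type vehicle array, and calls over all genes also became fewer in it. The part of the Kupffer markers in the wild-type class II decrease was not tested.

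Dendritic cell markers were mostly dim: 8 of 12, including the defining genes Flt3 and Itgax, were below the array median in all 12 arrays. The defining gene Zbtb46 was not among these 8 and was at -0.04 ± 0.09 in wild type (limma adjusted p = 0.830). In wild type 1 of 12 fell, Bst2 (-0.55 ± 0.13, adjusted p = 0.0168), beside 6.95% of all genes. In the knockout 0 did, beside 3.92%. The mean of the 12 ranged from 3.83 to 3.87 in wild-type vehicle, 3.75 to 3.84 in wild-type dexamethasone, 3.76 to 3.86 in knockout vehicle and 3.79 to 3.88 in knockout dexamethasone. Bst2 is also an interferon-induced gene outside dendritic cells.

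B cell markers were dim as well, with 9 of 11, Ms4a1 and Cd79a among them, below the array median in all 12 arrays. In wild type 3 of 10 tested fell, beside 6.95% of all genes, and in the knockout 0 passed, beside 3.92%. The 3 were Cd79b (-0.60 ± 0.11, adjusted p = 2.87e-03), Cd79a (-0.59 ± 0.15, 0.0183) and Ms4a1 (-0.30 ± 0.09, 0.0380). The median change was -0.16 for wild-type livers and -0.19 for knockout livers, beside 0.01 and -0.01 over all genes. In the knockout 7 of 10 were below 0. Their mean ranged from 2.60 to 2.76 in wild-type vehicle, 2.44 to 2.50 in wild-type dexamethasone, 2.49 to 2.60 in knockout vehicle and 2.39 to 2.50 in knockout dexamethasone. The wild-type count was 1 without wild-type vehicle 1, wild-type dexamethasone 1 or wild-type dexamethasone 3. Over all genes 870, 909 and 931 were lower in these runs, in place of 1245. The B cell calls were lost without the 4 arrays with pancreas transcripts, where calls over all genes became fewer too and 1 wild-type vehicle array remained.

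Of 12 liver endothelial markers, 5 fell in wild-type livers, beside 6.95% of all genes, and 4 in knockout livers, beside 3.92%. In each genotype 1 was higher. The median changes were -0.34 in wild type, with 11 below 0, and -0.04 in the knockout, with 7 below 0. The 5 knockout calls became fewer without the 4 arrays with pancreas transcripts, as did knockout calls over all genes. They numbered 2 to 5 when 1 array was omitted, where 453 to 769 of all genes were lower in the knockout, against 701. The receptor Kdr was at -1.24 ± 0.14 (adjusted p = 9.78e-05) and -1.04 ± 0.14 (3.99e-04), and Lyve1, a hyaluronan receptor, at 1.80 ± 0.17 (2.27e-05) and 2.62 ± 0.17 (7.82e-07). Their mean ranged from 6.64 to 6.87 in wild-type vehicle, 6.38 to 6.50 in wild-type dexamethasone, 6.55 to 6.71 in knockout vehicle and 6.53 to 6.73 in knockout dexamethasone. Of monocyte and neutrophil markers 1 of 8 fell in wild type, the lysozyme gene Lyz2 (-1.46 ± 0.30, 6.85e-03), beside 6.95% of all genes. In the knockout 0 fell, beside 3.92%. The part of the dendritic, B cell, endothelial and myeloid markers in the class II values was not tested.

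**Figure D4:**
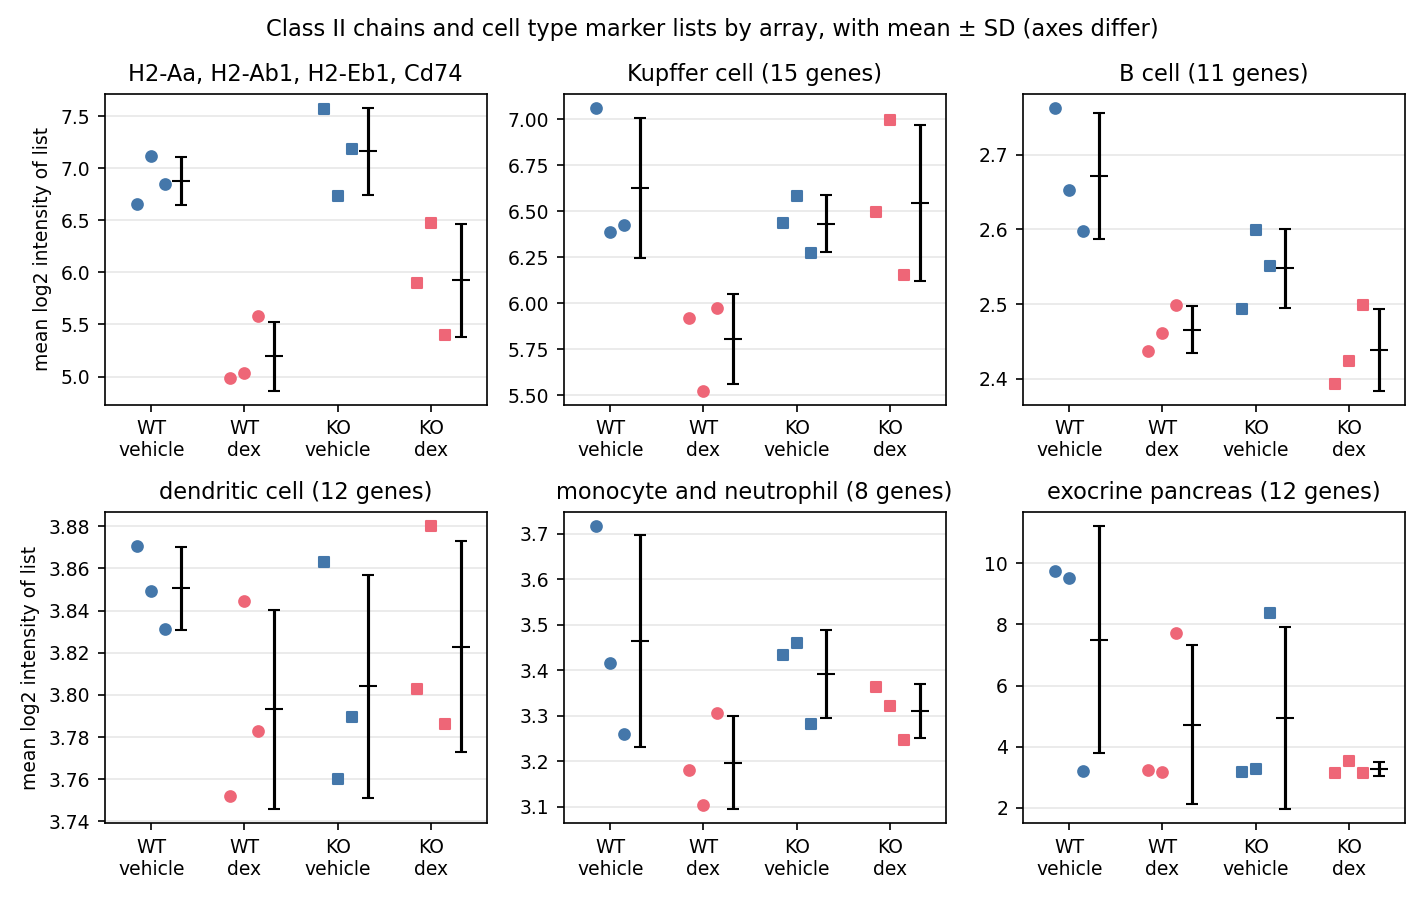
Mean log2 intensity per array (vertical axes, which differ between panels) of the 4 lowered class II transcripts and of 5 cell type marker lists in the 4 groups. Points are arrays and bars the mean ± SD over 3 arrays. The class II mean is lower under dexamethasone in both genotypes, the Kupffer mean is 5.53 to 5.97 in wild-type dexamethasone against 6.15 or more in all other arrays, and the pancreas mean is high in 4 arrays.

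Across the 12 arrays, the genes whose levels ran most closely with the class II mean were found by Pearson's r over 17898 other genes, as a description. The class II mean was taken over the 6 measured genes, each centred on its own mean. The 10 highest were Tap1 (r = 0.950), Scap (0.949), Gsap (0.947), Zc3hav1 (0.943), Gatm (0.940), Yipf2 (0.939), Septin9 (0.936), Pcgf3 (0.935), Smagp (0.934) and Ptprf (0.933). All 12 arrays enter each r, so it covers the treatment difference along with differences between animals, and these values share their arrays with the results above.

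Scap, the escort of the sterol-regulated SREBP factors, changed by -0.55 ± 0.11 in wild type and -0.47 ± 0.11 in the knockout (adjusted p = 6.16e-03 and 0.0192). Gatm, the first enzyme of creatine synthesis, changed by -2.27 ± 0.26 and -1.19 ± 0.26 (8.70e-05 and 0.0109). Of the 6 class II genes, H2-Aa, H2-Ab1, H2-Eb1 and Cd74 correlated with this mean at 0.982 to 0.992, H2-DMa at 0.312 and Ciita at 0.474, each being part of the mean itself.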

How the data were processed

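RNA from 12 livers was hybridised to Affymetrix whole-transcript arrays, per the labels' protocols. The authors used the affy package under R 2.10.0, per the submitters' processing notes, and deposited log2 intensities of 34760 probe sets. How these were normalised is not given here. The log2 unit was inferred from the range of the values, and precision is limited by the number of arrays.

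Of the probe sets, 21640 carried 1 symbol in the platform annotation, 1321 several and 11799 none; 21553 of the first had their gene in RefSeq's GRCm38.p6 annotation. The probe set of highest mean stood for a gene, and 17904 genes above their array's 20th percentile in at least 3 arrays were kept. Group means over the 12 arrays were fitted in R 4.3.3 by limma 3.58.1 (tables read by the data.table package, version 1.17.8), with 8 residual and 5.07 prior degrees of freedom. The p-values were adjusted by Benjamini-Hochberg over all kept genes, with a threshold of 0.05. The fit was tested on simulated data. A listed regulator is not reported here.

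The class II genes, the pathway and marker lists, and the alternatives were chosen with earlier results of these data known. Named genes are the class II genes, Hdac6, Irf1, Rfx5, Spi1 and Irf8, up to 6 genes per pathway list with the smallest p in the averaged effect, called and defining markers, and the 10 genes most like the class II mean. Rfxank, Rfxap, Nfya, Nfyc, Creb1, B2m, Ifi30, H2-Ea and the neighbours on chromosome 17 were added after their values were seen. T and NK cell markers were also set beside the rest: 10 of 11 were below the median in all arrays, with 0 lower and 1 higher in wild type and 0 called in the knockout. Over all 17904 genes, 1245 were lower and 819 higher in wild type, and 701 and 784 in the knockout. Of 10 hepatocyte markers 1 rose in each genotype, and of 12 pancreas markers 0 passed, with medians of -2.80 for wild-type and -1.59 for knockout livers.

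Replicate numbers come from the titles. Deviations of same-numbered arrays correlated at -0.54 to 0.36 over 18 pairs. The lowest and highest values were between arrays numbered 3, of which wild-type dexamethasone 3 and knockout vehicle 3 carried pancreas transcripts. Arrays of different numbers were not compared, so this cannot decide whether the numbers pair the animals. The main fit did not pair them. Alternatives were other filters, scalings, probe set summaries, weights, a replicate block, the pancreas arrays or their marker mean, and leaving out each array.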

Additional observations from a re-analysis of the deposited data

Results flagged for a closer look

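H2-Eb2, a class II beta chain gene next to H2-Eb1, had values of opposite sign in the genotypes, at -0.20 ± 0.09 (SE, adjusted p = 0.232) in wild type and 0.13 ± 0.09 (0.538) in the knockout, and passed in neither. All 3 wild-type dexamethasone arrays lay below the wild-type vehicle mean, and all 3 knockout dexamethasone arrays above the knockout vehicle mean. The means were 2.68 ± 0.11 (SD, n = 3) and 2.48 ± 0.04 in wild type and 2.54 ± 0.10 and 2.67 ± 0.12 in the knockout, so the difference of the effects was 0.33 ± 0.13. It did not pass in limma (adjusted p = 0.759), and all levels were below the array medians of 3.13 to 3.24. It was the only 1 of 52 genes checked with that pattern.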

How the results depend on the processing

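H2-Aa, H2-Ab1, H2-Eb1 and Cd74 were below 0 in all 23 alternatives in both genotypes. In wild type they passed in 22, 23, 22 and 23 of them, and in the knockout in 23, 16, 19 and 23. Without the 4 arrays with pancreas transcripts fewer class II genes were called in each genotype. There 1 wild-type vehicle array remained, and calls over all genes became fewer too. Omitting 1 array at a time gave 4 class II calls in wild type, 2 to 4 in the knockout, 4 for the averaged effect and 0 in the other 3 comparisons. Over all genes 835 to 1309 were then lower in wild type and 453 to 769 in the knockout, against 1245 and 701. With a replicate block the counts were 4 in wild type, 4 in the knockout, 4 on average and 0 elsewhere; the block ended the wild-type call of Ctsb (-0.34, adjusted p = 0.0569) and took 1 wild-type call each from the B cell and the T and NK cell markers. It changed no other call of the genes named in these comparisons.

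For the averaged effect, class II presentation had 1 call with array weights and 0 with the pancreas mean as a covariate, against 2. Over all genes 1842 and 1389 were lower in these runs, against 1779. Without the pancreas arrays class II presentation and regulators had fewer calls and class I presentation more, while calls over all genes became fewer. Omitting 1 array gave 0 to 2 calls for class II presentation, 5 to 7 for regulators and 1 to 2 for class I presentation, against 2, 6 and 1. Over all genes 1503 to 1774 were lower in those runs. The causes were not tested. Using only the arrays of the groups compared could not be run for the averaged effect and the difference of effects, which need all groups, and a filter at the array median removed H2-DMa and Ciita.

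Changes near 0 turned sign. Without the pancreas arrays H2-Ab1 was at -0.023 between genotypes under vehicle and H2-DMa at -0.14 on average (-0.022 with the covariate). In the knockout Ctsb was at 0.0056 with arrays centred on their median, 0.017 with weights, 0.040 without the pancreas arrays and 0.0054 with the covariate. Omitting 1 array at a time, the genotype difference under vehicle ran from -0.084 to 0.43 for H2-Eb1, -0.19 to 0.080 for H2-DMa and -0.062 to 0.058 for Ciita. H2-DMa ran from -0.20 to 0.027 in wild type and -0.014 to 0.11 on average. In the knockout Ctss ran from -0.34 to 0.14, Lgmn from -0.31 to 0.097 and Ctsb from -0.078 to 0.085. None of these passed the threshold.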
